A study of Mus musculus with 95 samples.

Results

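The comparison asks which genes changed when PCGF1 was removed from mouse embryonic stem cells that already lacked PCGF2 and PCGF4. It uses 2 RNA-seq libraries of Pcgf1/2/4-/- cells and 2 of Pcgf2/4-/- cells, which are 4 of the 95 samples and 4 of the 14 RNA-seq libraries of the series, and all 23377 genes of the count table. PCGF4 is the product of Bmi1. Loss of PCGF2 and PCGF4 is therefore shared by both groups, and PCGF1 is the protein that separates them. Wild-type and Pcgf1-/- cells, with 2 libraries each, served to ask whether the same gene loss had the same effect in cells that keep PCGF2 and PCGF4. Per the labels' protocols, all lines came from E14, an established mouse embryonic stem cell line. The medium held serum and leukaemia inhibitory factor, with small molecules that block GSK3β and MEK1/2, and the dishes were coated with gelatin. Clones were knocked out with Cas9, and a clone without 1 gene was edited again to remove the next. The table names 1 line for each genotype, so the effect of the genotype cannot be told apart from differences between clones. Whether the libraries of a group came from separate cultures is not given in the sources used here, and p-values measure only the spread between these libraries.

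PCGF proteins are the subunits that define the different forms of Polycomb repressive complex 1, in which RING1A or RING1B adds ubiquitin to a lysine of histone H2A, a mark called H2AK119ub1. PCGF2 and PCGF4 define the canonical complexes, whose CBX subunits bind the H3K27me3 mark laid down by Polycomb repressive complex 2. PCGF1 defines a variant complex with BCOR or BCORL1 and KDM2B, a protein that binds unmethylated CpG islands. In embryonic stem cells these complexes are known for holding developmental genes at low levels.

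The libraries differed in depth. Pcgf2/4-/- replicates 1 and 2 held 2764111 and 7547984 counts, and Pcgf1/2/4-/- replicates 1 and 2 held 2147968 and 2471117. Of the 23377 genes, 11335 passed the filter on low counts and were tested, and a level set by 3 counts was 0.319 to 1.53 CPM (counts scaled to a common library size) in the 4 libraries. The Pcgf1/2/4-/- pair was close to sampling noise, with a chi-square per degree of freedom of 1.22. The Pcgf2/4-/- pair was far from it, at 24.6. Replicate 2 of Pcgf2/4-/- exceeded replicate 1 by a median log2 ratio of 0.80 in the lowest decile of expression, and that median was -0.34 in the highest. The 2 wild-type libraries differed by less than the sampling noise, at 0.929, so the counts of calls that involve wild-type are given with this pair as 2 libraries and with its sum counted as 1 sample.

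The fold changes of highly expressed genes depended on which Pcgf2/4-/- library was used. In the highest decile of expression, the median log2 fold change of Pcgf1/2/4-/- over Pcgf2/4-/- was 0.40, against 0.06 over all genes tested. Without Pcgf2/4-/- replicate 2 that median was 0.03, and without replicate 1 it was 0.69. In that decile 5 genes passed the test as raised, by edgeR's quasi-likelihood test on all 4 libraries. Gene groups made of abundant transcripts are therefore described below with their values under both exclusions.

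**Figure D1:**
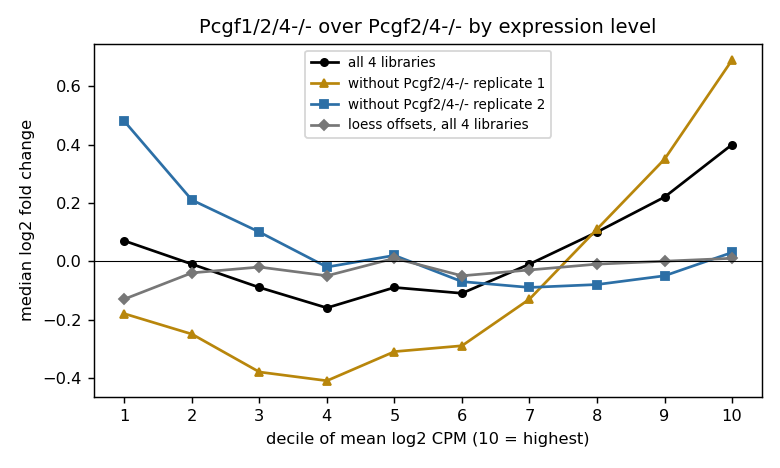
Median log2 fold change of Pcgf1/2/4-/- over Pcgf2/4-/- (vertical axis) in each decile of mean log2 CPM (horizontal axis, 10 being the highest), for all 4 libraries, without either Pcgf2/4-/- library, and with loess offsets. In the highest decile the median is 0.40 with all libraries, 0.69 without Pcgf2/4-/- replicate 1, 0.03 without replicate 2 and 0.01 with loess offsets.

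The cells carried the markers of their labelled type. All 7 embryonic stem cell markers (Pou5f1, Nanog, Sox2, Zfp42, Esrrb, Tdgf1 and Dppa5a) were tested, with adjusted p-values from 0.201 to 0.703. Pou5f1, the gene of OCT4, had 529 and 210 CPM in Pcgf2/4-/- and 686 and 616 CPM in Pcgf1/2/4-/-. Of 21 fibroblast markers, 7 had no count in any of the 4 libraries, and Pdgfrb held most of the summed level of the rest. That sum was 30.8 and 48.4 CPM in Pcgf2/4-/- and 41.4 and 38.9 CPM in Pcgf1/2/4-/-, so the groups overlapped.

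The targeted transcript was nearly gone. Pcgf1 (ENSMUSG00000069678.3) had 82.1 and 55.5 CPM in Pcgf2/4-/- and 0.511 and 0.874 CPM in Pcgf1/2/4-/-. Only 3 counts were left in Pcgf1/2/4-/-, or 1.15% of the Pcgf2/4-/- level (exact 95% interval 0.238 to 3.39%, which covers counting error only). The log2 fold change was -6.52 (SE 0.44, Benjamini-Hochberg adjusted p = 4.63e-06 by the quasi-likelihood test of edgeR; every adjusted p below comes from this test unless another is named). The transcripts of the other deleted genes were still counted. Pcgf2 had 38.1 and 45.6 CPM in Pcgf2/4-/- and 54.6 and 55.1 CPM in Pcgf1/2/4-/- (adjusted p = 0.143), and Bmi1 had 11.3 and 11.7 CPM against 13.3 and 19.2 CPM (adjusted p = 0.314). Against wild-type, the log2 fold changes in Pcgf2/4-/- were 0.10 for Pcgf2 and -0.18 for Bmi1. Counts over whole genes do not show which exons are left, so these values check the Pcgf1 label only.

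Many genes differed between the groups, in both directions. Of 11335 genes, 2405 (21.2%) passed an adjusted p of 0.05, with 1245 raised (11%) and 1160 lowered (10.2%), and 3726 had an unadjusted p below 0.05. Of those called, 817 rose and 621 fell at least 2-fold. For all 2405 the libraries of the groups did not overlap, which held for 61.9% of all tested genes whatever their p. The share of raised genes among the calls was 51.8%, and 38.6% when all 14 RNA-seq libraries were fitted together. The count itself moved with single libraries. It was 7691 without Pcgf2/4-/- replicate 1, 4921 without Pcgf2/4-/- replicate 2, 1250 without Pcgf1/2/4-/- replicate 1 and 1169 without Pcgf1/2/4-/- replicate 2. DESeq2 called 1203. Most of the 2405 calls were not kept in all 4 fits without 1 library. A fit without 1 Pcgf2/4-/- library takes its spread from the Pcgf1/2/4-/- pair alone, which was close to sampling noise. Calls kept in such a fit therefore cannot show that they hold against the spread of the Pcgf2/4-/- pair.

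The 10 raised genes with the largest change in every fit included a protease, surface proteins, a neurofilament and regulators of transcription. They were chosen among genes with a mean log2 CPM of at least 3. Of them, Htra1, Adh1, Tspan2, Khdc3, Meis1, Tinagl1 and Cd200 passed the low-count filter through Pcgf1/2/4-/- alone. They missed its level in at least 1 Pcgf2/4-/- library, so their calls are a description only. Htra1, which encodes a secreted serine protease, had 1.17 and 2.12 CPM in Pcgf2/4-/- and 36.2 and 30.1 CPM in Pcgf1/2/4-/- (log2 fold change 4.12, SE 0.37, adjusted p = 3.18e-05). Tspan2, a tetraspanin, had 1.95 and 3.72 CPM against 42.9 and 42.0 CPM (log2 fold change 3.71, SE 0.32, adjusted p = 2.49e-05). In Pcgf2/4-/- replicate 1 these levels rest on 3 and 5 counts. Meis1, a TALE homeobox transcription factor, had 2.33 and 2.97 CPM against 24.5 and 28.4 CPM (log2 fold change 3.23, SE 0.35, adjusted p = 8.77e-05). Nefm, the medium neurofilament chain, had 5.06 and 5.84 CPM against 46.0 and 48.1 CPM (log2 fold change 3.06, SE 0.27, adjusted p = 2.42e-05). Nefm shares exonic bases with Nefl on the opposite strand, and whether counting used the strand is not given in the sources used here. Ly6e, a membrane-anchored surface protein, was the most abundant of the group, at 22.6 and 25.8 CPM against 201 and 194 CPM (log2 fold change 3.01, SE 0.20, adjusted p = 4.18e-06). Cry1, a repressor of the circadian clock, had 16.7 and 17.6 CPM against 123 and 135 CPM (log2 fold change 2.90, SE 0.16, adjusted p = 1.56e-06). The other members of the 10 were Adh1 (alcohol dehydrogenase), Khdc3 (an oocyte protein of the subcortical maternal complex), Tinagl1 (a matrix glycoprotein) and Cd200 (a surface glycoprotein), with log2 fold changes from 2.99 to 3.81. These 10 genes were ranked by their smallest change over the full fit and the 4 fits without 1 library. That their change held in each fit is therefore not a separate result.

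The promoters of Htra1 and Tspan2 are shown because they had the largest fold changes of the 4 genes among the 10 above with a PCGF1 peak near their start in Pcgf2/4-/- cells. PCGF1 peaks within 2500 bp of a start were found for these 2, Meis1 and Nefm, and for 417 of the 10618 tested genes with an annotated start. Each sequence is the 250 bases before the annotated start on the plus strand of the mouse build NCBIM37, with CG dinucleotides, the unit of CpG islands, in capitals.
Htra1: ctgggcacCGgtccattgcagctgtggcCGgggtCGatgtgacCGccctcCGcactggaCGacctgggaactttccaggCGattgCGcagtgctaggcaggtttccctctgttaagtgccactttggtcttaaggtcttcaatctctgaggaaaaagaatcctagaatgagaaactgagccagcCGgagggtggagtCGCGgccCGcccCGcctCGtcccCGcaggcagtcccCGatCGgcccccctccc
Tspan2: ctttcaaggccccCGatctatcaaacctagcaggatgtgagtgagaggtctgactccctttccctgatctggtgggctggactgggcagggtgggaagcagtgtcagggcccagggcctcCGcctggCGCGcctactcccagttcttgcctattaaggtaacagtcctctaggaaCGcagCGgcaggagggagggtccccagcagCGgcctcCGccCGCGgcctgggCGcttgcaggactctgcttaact
The Htra1 window (chr7:138079375-138079624) held 17 CG and was 62.4% G or C. Of 22176 windows of this length before protein-coding genes, 28% held at least as many, and the median was 8. The authors' PCGF1 peak in Pcgf2/4-/- lay inside the gene at bases 138079644 to 138080665, with a deposited −log10 q of 14.15. The Tspan2 window (chr3:102538202-102538451) held 11 CG, reached by 44.2% of windows, and its peak lay downstream of the start at bases 102538960 to 102539262, with a −log10 q of 10.73.

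Under the same limit on mean level, the 10 lowered genes with the largest change in every fit included an actin-binding protein, a channel and secreted proteins. Ablim1, an actin-binding LIM protein (chromosome 19, 57107223 to 57389409, NCBIM37), had 161 and 163 CPM in Pcgf2/4-/- and 11.7 and 8.74 CPM in Pcgf1/2/4-/- (log2 fold change -3.99, SE 0.21, adjusted p = 1.56e-06). Trpm1, a cation channel, had 237 and 150 CPM against 12.2 and 14.4 CPM (log2 fold change -3.84, SE 0.27, adjusted p = 6.84e-06). For both, even the lower Pcgf2/4-/- library was more than 10-fold above the Pcgf1/2/4-/- libraries. Fstl1, a secreted glycoprotein, had 190 and 171 CPM against 21.4 and 19.7 CPM (log2 fold change -3.13, SE 0.20, adjusted p = 4.18e-06). Il2rg, the common γ chain of interleukin receptors, had 34.2 and 40.1 CPM against 3.57 and 2.19 CPM (log2 fold change -3.71, SE 0.37, adjusted p = 5.24e-05). Lhpp, a phosphatase, had 73.2 and 81.9 CPM against 13.3 and 10.1 CPM (log2 fold change -2.75, SE 0.21, adjusted p = 1.02e-05). Pcgf1 itself was also among the 10. Ccdc141, Myo1a (a brush border myosin) and Armcx2 were others, with log2 fold changes from -3.18 to -3.12 and 11 to 13 counts over both Pcgf1/2/4-/- libraries. Pcgf1, Il2rg, Ccdc141, Myo1a and Armcx2 passed the low-count filter through Pcgf2/4-/- alone, so their calls are a description only.

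**Figure D2:**
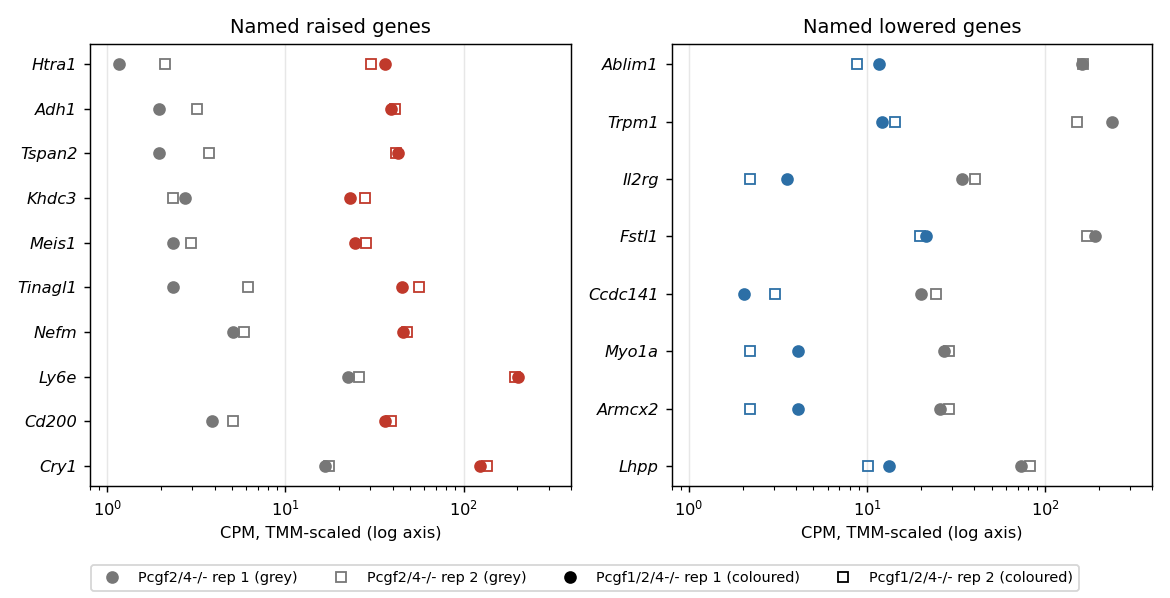
CPM on a log axis of the 10 raised genes (left, red) and 8 of the lowered genes (right, blue) in each library, with Pcgf2/4-/- in grey, circles for replicate 1 and squares for replicate 2. The genes were chosen so that the Pcgf1/2/4-/- points do not overlap the Pcgf2/4-/- points, so the gap is not a separate result. Ly6e spans from 22.6 to 201 CPM.

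Gene groups are described by their tested members, beside the 11% raised, 10.2% lowered and median log2 fold change of 0.06 over all genes tested. General knowledge gave the lists, and members with too few counts were not tested. A gene had to reach the level of 10 counts at the median depth in 2 libraries, so a gene could pass through 1 group alone. Of all tested genes, 576 passed through Pcgf1/2/4-/- alone, of which 340 were called raised, and 546 through Pcgf2/4-/- alone, of which 208 were called lowered. Several lists below held calls of this kind. A fit without 1 library leaves 1 library in a group, and the number of all genes called in it moved as given above. For such fits the list medians are therefore given, over the genes tested in each fit. Over all genes these medians were -0.06 and 0.02 without Pcgf2/4-/- replicates 1 and 2, and 0.07 and 0.05 without Pcgf1/2/4-/- replicates 1 and 2. One list holds genes that mark the rare embryonic stem cells resembling 2-cell embryos. Of 24 such genes in the table, 8 were tested, and 8 fell, with a median of -1.95, but 6 of the 8 had passed the filter through Pcgf2/4-/- alone, so their count is a description only. Zscan4a had 19.5 and 20.7 CPM in Pcgf2/4-/- and 2.55 and 5.68 CPM in Pcgf1/2/4-/- (log2 fold change -2.25, SE 0.40, adjusted p = 0.00192). Zscan4d had 24.9 and 18.6 CPM against 5.62 and 4.81 CPM (log2 fold change -2.02, SE 0.37, adjusted p = 0.00226). The Zscan4 genes are near-identical copies, so reads may be split among them and their values are uncertain singly. The list median was -1.98 and -2.24 without Pcgf1/2/4-/- replicates 1 and 2, where fewer members were called, and DESeq2 called 5 of 8. In bulk RNA, fewer cells in this state and less RNA per cell cannot be told apart. The level was already below wild-type in Pcgf2/4-/- for Zscan4a (log2 fold change -1.29), and was -3.69 in Pcgf1/2/4-/- against wild-type. Loss of Pcgf1 alone lowered 14 of 18 tested members, against 13.6% of all genes tested there, with a median of -3.36, and 15 of 20, against 5.55%, with the wild-type pair as 1 sample. Zscan4a had a log2 fold change of -4.43 there.

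Genes of the Wnt and β-catenin pathway fell more often than they rose. GSK3β, which is inhibited in this medium, is the kinase that marks β-catenin for destruction, and TCF/LEF factors carry β-catenin to its target genes. Of 26 tested members, 3 rose and 12 fell, with a median of -0.33. The 3 raised and 1 of the 12 lowered had passed the filter through the group where they were high. The summed level of all 44 members in the table, in CPM over raw library totals, was 1056 and 1475 in Pcgf2/4-/- and 730 and 779 in Pcgf1/2/4-/-, so the groups did not overlap. The TCF/LEF factor Lef1 had 61.1 and 60.1 CPM against 15.3 and 17.5 CPM (log2 fold change -1.88, SE 0.20, adjusted p = 7.75e-05). Tcf7l2, of the same family, had 80.5 and 64.9 CPM against 24 and 29.3 CPM (log2 fold change -1.42, SE 0.19, adjusted p = 0.000281). Among targets, the cell cycle regulator Ccnd1 had 89.9 and 90.0 CPM against 26.0 and 24 CPM (log2 fold change -1.85, SE 0.17, adjusted p = 3.04e-05). Ccnd1 shares exonic bases with Oraov1 on the other strand. Axin2, a feedback inhibitor, had 80.5 and 101 CPM against 42.4 and 40.2 CPM (log2 fold change -1.15, SE 0.17, adjusted p = 0.000548). The list median was -0.59 and -0.16 without Pcgf2/4-/- replicates 1 and 2, and -0.27 and -0.25 without Pcgf1/2/4-/- replicates 1 and 2. On the wild-type background Lef1 and Tcf7l2 had log2 fold changes of -0.18 and 0.00 (adjusted p = 0.288 and 0.992), and Axin2 fell by 1.00. The list as a whole had 12 of 31 tested members lowered and 5 raised there, against 13.6% and 16.1% of all genes, and 6 and 3 of 34, against 5.55% and 6.1%, with the wild-type pair as 1 sample.

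Mesendoderm genes included several of these Wnt targets, and 5 of 12 tested fell while 3 rose. Of these, 1 lowered gene, T, and 1 raised gene had passed the filter through the group where they were high. The calls of these genes are a description only. T, the mesoderm factor Brachyury, had 10.1 and 11.8 CPM against 1.53 and 2.19 CPM (log2 fold change -2.55, SE 0.48, adjusted p = 0.00242). The caudal homeobox gene Cdx2 had 77.4 and 82.8 CPM against 31.7 and 36.3 CPM (log2 fold change -1.24, SE 0.16, adjusted p = 0.000281), and Cdx1 fell by 1.33 on the same scale. The median of the mesendoderm list was 0.17. It was 0.01 and 0.33 without Pcgf2/4-/- replicates 1 and 2, and 0.28 and 0.29 without Pcgf1/2/4-/- replicates 1 and 2.

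Genes of formative and primed pluripotency, the states that follow the naive state in the embryo, rose more often than they fell. Of 13 tested, 7 rose and 1 (Lef1) fell, with a median of 0.98. Of the 7 raised, 1 had passed the filter through Pcgf1/2/4-/- alone. The median was 0.98 and 0.82 without Pcgf2/4-/- replicates 1 and 2, and 0.96 and 1.01 without Pcgf1/2/4-/- replicates 1 and 2. Etv4, an ETS factor of the FGF and ERK response, had 47.1 and 56.2 CPM against 151 and 151 CPM (log2 fold change 1.53, SE 0.18, adjusted p = 0.000146). Dnmt3l, the cofactor of the de novo DNA methyltransferases, had 70.8 and 70.5 CPM against 279 and 270 CPM (log2 fold change 1.96, SE 0.26, adjusted p = 0.000298). Dnmt3l shares exonic bases with Aire on the other strand. Dnmt3b, one of those methyltransferases, had 80.9 and 100.0 CPM against 347 and 346 CPM (log2 fold change 1.93, SE 0.32, adjusted p = 0.00115). Against wild-type, the log2 fold change in Pcgf2/4-/- was -0.92 for Etv4 and -1.17 for Dnmt3l (both called), and -0.54 for Dnmt3b (adjusted p = 0.0754). In Pcgf1/2/4-/- they stood at 0.47, 0.66 and 1.25 above wild-type on the log2 scale. Among 28 pluripotency factors, all tested, 1 rose and 3 fell. Klf2, a naive factor, had 37.4 and 32.1 CPM against 17.9 and 15.3 CPM (log2 fold change -1.05, SE 0.25, adjusted p = 0.00972). None of these 4 calls was kept in both fits without 1 Pcgf1/2/4-/- library. The median of the 28 was 0.24, and 0.44 and -0.06 without Pcgf2/4-/- replicates 1 and 2.

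Trophoblast genes, which are largely expressed in the placenta lineage, rose in 10 of 18 tested cases and fell in 2, with a median of 1.04. Of the 10 raised, 4 had passed the filter through Pcgf1/2/4-/- alone, so the count is a description only. Krt18, an epithelial keratin, had 20.2 and 31.6 CPM against 111 and 125 CPM (log2 fold change 2.12, SE 0.19, adjusted p = 3.26e-05). The lists share members, and Krt18 is also counted as raised in the formative and primed list and in the primitive endoderm list. H19, an imprinted long RNA of placenta and fetus, had no count in Pcgf2/4-/- and 9.19 and 11.4 CPM in Pcgf1/2/4-/-, at least 41.4-fold higher against a floor of 3 counts over the Pcgf2/4-/- group. H19 also hosts Mir675 on the same strand. The defining factors did not move as 1 group. Tfap2c had 4.28 and 4.02 CPM against 15.8 and 22.7 CPM (log2 fold change 2.23, adjusted p = 0.0011). Cdx2 fell as given above, and Elf5 and Tpbpa had no count in the 4 libraries. The summed level of the 6 defining trophoblast markers was 91.1 and 102 CPM in Pcgf2/4-/- and 58.7 and 74.3 CPM in Pcgf1/2/4-/-, most of it from Cdx2. The median of the trophoblast list was 0.92 and 1.49 without Pcgf2/4-/- replicates 1 and 2. It was 1.36 and 0.87 without Pcgf1/2/4-/- replicates 1 and 2.

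Of primitive endoderm genes, 5 of 19 tested rose and 4 fell, and 2 of the 5 raised had passed the filter through Pcgf1/2/4-/- alone. Col4a1, a basement membrane collagen, had 6.23 and 6.90 CPM against 25.5 and 35.4 CPM (log2 fold change 2.19, SE 0.31, adjusted p = 0.000436). Its neighbour Col4a2, which shares exonic bases with it, had 0.778 and 2.76 CPM against 22.5 and 19.2 CPM (log2 fold change 3.21, SE 0.43, adjusted p = 0.000304). On the wild-type background Col4a1 went the other way, where it fell by 1.82 on the log2 scale (adjusted p = 0.0048). The defining factors Gata4, Gata6, Sox7 and Sox17 each stayed at or below 2.04 CPM in all 4 libraries. Dab2 carried the rise of the summed 6 markers, from 3.11 and 4.02 CPM to 14.3 and 15.3 CPM. The median of the primitive endoderm list was 0.34. It was 0.04 and 0.30 without Pcgf2/4-/- replicates 1 and 2, and 0.37 and 0.22 without Pcgf1/2/4-/- replicates 1 and 2.

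Developmental transcription factors, the best known Polycomb targets, were mostly too low to test. Of 108 such genes outside the Hox clusters, 18 were tested, 7 rose and 5 fell. Of these, 6 of the raised and 3 of the lowered genes had passed the filter through the group where they were high. Tbx20, a cardiac T-box factor, had 0.389 and 1.27 CPM against 23.5 and 22.7 CPM (log2 fold change 4.41, SE 0.44, adjusted p = 5.63e-05). The median of this list was 0.77. It was 0.79 and 1.73 without Pcgf2/4-/- replicates 1 and 2, and 0.83 and 0.79 without Pcgf1/2/4-/- replicates 1 and 2. Of 39 Hox genes, 14 were tested, 4 rose and 1 fell, and 3 of the raised had passed the filter through Pcgf1/2/4-/- alone. The increases with the smallest adjusted p were in the Hoxd cluster. Hoxd13 had no count in Pcgf2/4-/- and 5.62 and 5.24 CPM in Pcgf1/2/4-/-, at least 21.6-fold higher against the same floor. Hoxd9 had 0.778 and 0.319 CPM against 9.70 and 8.30 CPM (log2 fold change 4.30, SE 0.53, adjusted p = 0.000178). The Hox median was 0.13. It was -0.26 and 0.80 without Pcgf2/4-/- replicates 1 and 2, and 0.14 and -0.09 without Pcgf1/2/4-/- replicates 1 and 2. Loss of Pcgf1 alone raised 10 of the 13 Hox genes tested there, against 16.1% of all genes, with a median of 1.14, and 7 of 17, against 6.1%, with the wild-type pair as 1 sample. Of the other developmental transcription factors, 5 were raised and 14 lowered of 28 tested there, with a median of -1.07, and 5 and 13 of 31 with the wild-type pair as 1 sample.

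Neural genes rose in 5 of 12 tested cases and fell in 1, and 2 of the 5 raised had passed the filter through Pcgf1/2/4-/- alone. Tubb3, the neuronal β-tubulin, had 7.78 and 12.2 CPM against 81.7 and 88.7 CPM (log2 fold change 2.98, SE 0.21, adjusted p = 5.94e-06). Against wild-type, the log2 fold change of Tubb3 was -2.70 in Pcgf2/4-/- and 0.12 in Pcgf1/2/4-/-. Nes, the gene of the progenitor filament nestin, had 0.778 and 0.425 CPM against 4.59 and 6.55 CPM (log2 fold change 3.40, SE 0.52, adjusted p = 0.00074). The neural factors Sox1 and Pax6 were each below 1 CPM in all 4 libraries. The 5 defining neural markers summed to 391 and 198 CPM in Pcgf2/4-/- and 578 and 557 CPM in Pcgf1/2/4-/-, most of it from Stmn2, which did not pass the test (adjusted p = 0.327). The median of the neural list was 0.63. It was 1.15 and 0.47 without Pcgf2/4-/- replicates 1 and 2, and 0.38 and 0.56 without Pcgf1/2/4-/- replicates 1 and 2.

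Germline genes, a group that Polycomb complexes with other PCGF members are known to repress, moved both ways, with 6 of 29 tested raised and 7 lowered. Tex101, a germ cell surface protein, had 5.06 and 9.67 CPM against 58.2 and 51.1 CPM (log2 fold change 2.73, SE 0.27, adjusted p = 5.38e-05). Stk31, a kinase-like protein of germ cells, had 73.2 and 74.0 CPM against 227 and 246 CPM (log2 fold change 1.69, SE 0.24, adjusted p = 0.000443). Sohlh2, a transcription factor of early germ cells, had 47.5 and 46.3 CPM against 10.2 and 12.2 CPM (log2 fold change -2.05, SE 0.24, adjusted p = 0.000144). Of the germline calls, 1 raised and 1 lowered gene had passed the filter through the group where they were high. The germline median was -0.28. It was -0.58 and -0.45 without Pcgf2/4-/- replicates 1 and 2, and -0.32 and -0.26 without Pcgf1/2/4-/- replicates 1 and 2. Imprinted genes rose in 7 of 31 tested cases and fell in 3. Mest, a paternally expressed gene, had 40.1 and 45.4 CPM against 109 and 108 CPM (log2 fold change 1.33, SE 0.15, adjusted p = 0.000105). Mest shares exonic bases with Copg2. Of the 7 raised imprinted genes, 2 had passed the filter through Pcgf1/2/4-/- alone. The imprinted median was 0.14, and 0.04 and 0.05 without Pcgf2/4-/- replicates 1 and 2.

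Among immune genes, 6 of 20 tested members of the interferon and antigen presentation list rose and 3 fell. Of the 6, 2 had passed the filter through Pcgf1/2/4-/- alone. The rise included genes of class I antigen presentation. H2-K1 and H2-D1, class I heavy chains that are close paralogs, had 5.84 and 7.54 CPM against 33.7 and 39.8 CPM and 10.5 and 14.6 CPM against 52.6 and 53.8 CPM. Their log2 fold changes were 2.39 (SE 0.29, adjusted p = 0.000161) and 2.02 (SE 0.23, adjusted p = 0.0001). Psmb9, a subunit of the immunoproteasome that shares exonic bases with Tap1 on the other strand, had 1 count in the Pcgf2/4-/- libraries, or 0.844% of the Pcgf1/2/4-/- level (exact 95% interval 0.0209 to 4.97%), and 9.70 and 10.1 CPM in Pcgf1/2/4-/-. Bst2, an antiviral membrane protein, had 46.7 and 42.9 CPM against 132 and 115 CPM (log2 fold change 1.47, SE 0.16, adjusted p = 0.0001). All 4 genes had been below wild-type in Pcgf2/4-/-, with log2 fold changes from -5.28 for Psmb9 to -0.57 for Bst2, and stood 0.77 to 1.12 above it in Pcgf1/2/4-/-. The median of the list was -0.05, and 0.24 and 0.10 without Pcgf2/4-/- replicates 1 and 2.

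Stress and metabolic programmes changed in a minority of members. In the hypoxia list, 7 of 20 tested rose and 1 fell. Hif1a, the oxygen-sensing transcription factor, had 61.9 and 64.4 CPM against 141 and 141 CPM (log2 fold change 1.16, SE 0.17, adjusted p = 0.00062). Among unfolded protein response genes, 4 of 21 rose and 1 fell. Xbp1, a transcription factor of that response, had 44.0 and 46.3 CPM against 157 and 159 CPM (log2 fold change 1.80, SE 0.18, adjusted p = 5.24e-05). Dnajb11, a chaperone of the endoplasmic reticulum, had 30.7 and 35.2 CPM against 92.4 and 108 CPM (log2 fold change 1.59, SE 0.16, adjusted p = 5.91e-05). Of the raised genes, 1 in each of these lists had passed the filter through Pcgf1/2/4-/- alone. The hypoxia median was 0.50, and 0.52 and 0.42 without Pcgf2/4-/- replicates 1 and 2. The unfolded protein response median was 0.36, and 0.67 and 0.09 in the same order. Of 31 actin cytoskeleton genes in the table, 24 were tested, 6 rose and 2 fell. Cnn2, a calponin that binds actin, had 47.9 and 55.5 CPM against 118 and 127 CPM (log2 fold change 1.23, SE 0.17, adjusted p = 0.000313). The actin median was 0.50, and 0.72 and 0.30 without Pcgf2/4-/- replicates 1 and 2. Ribosomal protein genes, which are very abundant, had a median of 0.72, but 0 of 76 passed the edgeR test in either direction, 1 had an unadjusted p below 0.05 and DESeq2 called 1. Their median was 1.46 without Pcgf2/4-/- replicate 1 and 0.13 without Pcgf2/4-/- replicate 2.

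Genes of the Polycomb machinery were mostly not called. Of the 9 partners of PCGF1 tested, among them Kdm2b, Bcor, Rnf2 and Rybp, edgeR and DESeq2 called 0, and 2 had an unadjusted p below 0.05. Of 11 subunits of Polycomb repressive complex 2 tested, 1 rose and 1 fell, and of 8 canonical subunits 1 rose and 0 fell. Ezh2, the methyltransferase of Polycomb repressive complex 2, rose from 58.8 and 51.7 CPM to 113 and 127 CPM (log2 fold change 1.13, SE 0.17, adjusted p = 0.000592). Its paralog Ezh1 fell from 51.8 and 65.3 CPM to 38.3 and 42.4 CPM (log2 fold change -0.56, SE 0.18, adjusted p = 0.0398), a call lost in DESeq2 and in 3 of the 4 fits without 1 library, those other than the fit without Pcgf2/4-/- replicate 1. Cbx2, a subunit of canonical complexes, rose from 23.7 and 38.8 CPM to 64.3 and 65.5 CPM (log2 fold change 0.99, SE 0.21, adjusted p = 0.00496), a call that DESeq2 did not make. Pcgf5, which defines another variant complex, had 3.50 and 4.89 CPM against 11.7 and 12.7 CPM (log2 fold change 1.45, SE 0.37, adjusted p = 0.0141). The Pcgf5 call was lost without either Pcgf1/2/4-/- library and in DESeq2. Pcgf5 had also passed the filter through Pcgf1/2/4-/- alone, so its call is a description only. The partners called without Pcgf2/4-/- replicate 1 numbered 3 raised and 2 lowered of 9 (33.3% and 22.2%), near the 31.3% and 33.3% of all genes called in that fit. Without Pcgf2/4-/- replicate 2 they were again 3 and 2, beside 22.5% and 20.2% of all genes.

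**Figure D3:**
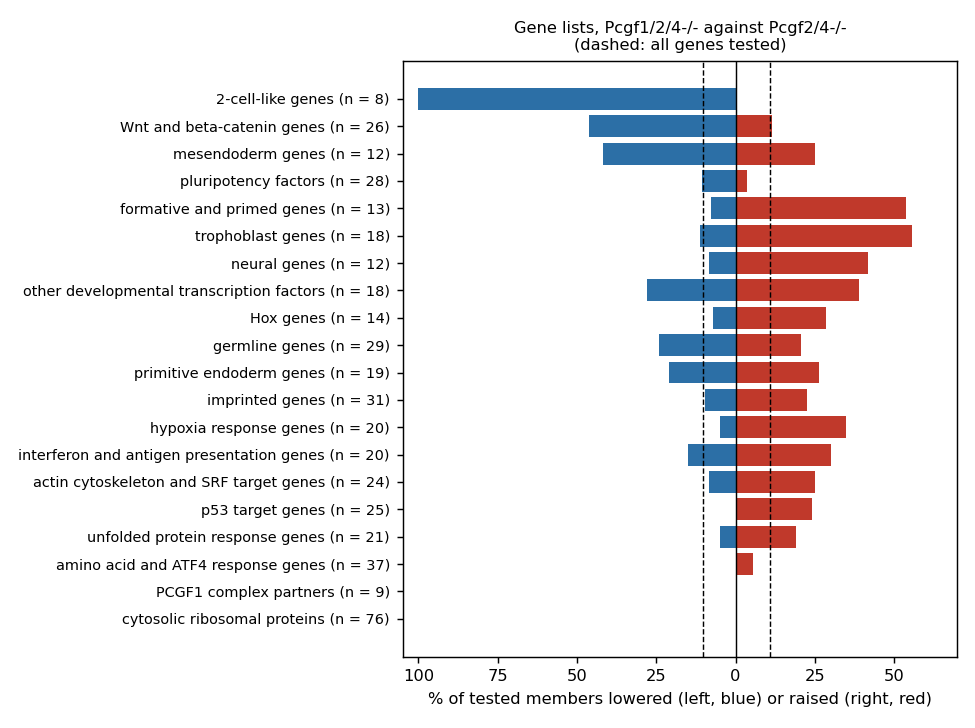
Percentage of the tested members of each gene list that were lowered (left, blue) or raised (right, red) in Pcgf1/2/4-/- against Pcgf2/4-/-, with the number tested in brackets and dashed lines at the 10.2% lowered and 11% raised of all genes tested. All 8 tested 2-cell-like genes lie on the lowered side, 6 of which passed the filter through Pcgf2/4-/- alone. On the raised side lie 10 of 18 trophoblast genes, 4 of which passed it through Pcgf1/2/4-/- alone.

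Genes called in Pcgf1/2/4-/- and not in Pcgf2/4-/- were counted by a joint rule. A gene had to be called against Pcgf2/4-/-, be called in the same direction against wild-type, and show in Pcgf2/4-/- against wild-type no call and a log2 fold change within 0.5 of 0. By this rule 1193 genes, 10.5% of those tested, were counted, with 474 raised and 719 lowered. With the wild-type pair counted as 1 sample the number was 871. It was 3754 and 1773 without Pcgf2/4-/- replicates 1 and 2, and 459 and 446 without Pcgf1/2/4-/- replicates 1 and 2. The comparisons share libraries, so the number is a description. Against wild-type, 30.9% of 13588 genes were called in Pcgf1/2/4-/- and 15.8% in Pcgf2/4-/-, and 15.1% and 6.53% of 13604 with the wild-type pair as 1 sample. The median over all genes of the same Pcgf1/2/4-/- over Pcgf2/4-/- contrast was -0.07 when scaled over these 8 libraries and 0.06 when scaled over the 4.

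Parm1 (a mucin-like membrane protein), Olfml3 (a secreted olfactomedin-like protein), Cry1, Fam159b, Prss16 (a serine protease of the thymus) and Clptm1 led the increases of this kind among genes with a mean log2 CPM of at least 3. Parm1 had 3.89 and 5.63 CPM in Pcgf2/4-/- and 34.2 and 43.3 CPM in Pcgf1/2/4-/- (log2 fold change 2.92, SE 0.31, adjusted p = 7.17e-05). Its log2 fold change against wild-type was 0.07 in Pcgf2/4-/- and 2.84 in Pcgf1/2/4-/-. Clptm1 had 9.73 and 12.8 CPM against 61.8 and 53.3 CPM (log2 fold change 2.28, SE 0.23, adjusted p = 5.24e-05), and stood at -0.06 and 2.07 against wild-type in the same order. The rule requires a Pcgf2/4-/- level near wild-type, so this closeness, here and in the genes below that met the rule, is not a separate result. Parm1, Olfml3 and Prss16 passed the low-count filter through Pcgf1/2/4-/- alone. Under the same limit the decreases were led by Pcgf1, Myo1a, Fstl1, Ccdc141, Scara5 (a scavenger receptor) and Tnni1 (the slow skeletal troponin I). Fstl1 was at 0.21 in Pcgf2/4-/- and -3.05 in Pcgf1/2/4-/- against wild-type. Tnni1 had 70.4 and 63.4 CPM in Pcgf2/4-/- and 9.19 and 11.4 CPM in Pcgf1/2/4-/- (log2 fold change -2.68, SE 0.22, adjusted p = 1.72e-05), and was at 0.09 and -2.72 against wild-type. Among the genes described above, Lef1, Cdx1, Cdx2, Axin2, Klf2, Krt18, Stk31, Col4a1, Xbp1, Dnajb11, Hif1a and Cbx2 also met the rule. Htra1, Ly6e, Tubb3, Dnmt3l, H2-K1 and Ablim1 did not, because their Pcgf2/4-/- level already differed from wild-type. Htra1, for example, was at -2.79 in Pcgf2/4-/- and 1.17 in Pcgf1/2/4-/-, and Ablim1 at 0.84 and -3.28.

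The same gene was also removed from wild-type cells, in libraries that share none with the comparison above. In Pcgf1-/- against wild-type, 4003 of 13450 genes (29.8%) were called, 2170 of them raised, and 1644 with the wild-type pair counted as 1 sample. Over the 11311 genes tested on both backgrounds the log2 fold changes had a Pearson r of 0.02 across genes, and 0.04 without Pcgf2/4-/- replicate 2. Genes are not independent replicates, and the value is a description. Of the genes called on each background (2384 and 3122), 931 were called on both, 432 in the same direction and 499 in opposite directions. The 432 were 18.1% of the first list and 13.8% of the second, and held 242 raised and 190 lowered genes. With the wild-type pair as 1 sample, 348 were called on both, 181 in the same direction and 167 in opposite directions. Krt18 rose on both backgrounds, by 2.12 and 1.47 on the log2 scale, and Cdx2 fell on both, with values of -1.24 and -1.60. Cry1, Fstl1 and Ablim1 moved by 2.90, -3.13 and -3.99 on the Pcgf2/4-/- background against 0.67, -0.02 and 0.19 on wild-type.

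The difference between the backgrounds was tested as an interaction, the Pcgf1/2/4-/- over Pcgf2/4-/- change minus the Pcgf1-/- over wild-type change. Of 13588 genes, 3625 (26.7%) were called, 1648 in the positive and 1977 in the negative direction, and 2275 with the wild-type pair counted as 1 sample. Leaving out 1 of the 8 libraries gave 2000 to 5927, and without Pcgf2/4-/- replicate 2 the positive share was 58.3% in place of 45.5%. Htra1 had an interaction of 7.47 on the log2 scale (SE 0.47, adjusted p = 1.93e-05, or 3.27e-05 with wild-type as 1 sample). Scaled over 8 libraries, Htra1 had 13.9 and 16.1 CPM in wild-type and 1.39 and 1.11 CPM in Pcgf1-/-, so it was lowered there and raised here. Ablim1 had 105 and 97.0 CPM in wild-type and 116 and 99.4 CPM in Pcgf1-/-, and an interaction of -4.21 (SE 0.25, adjusted p = 1.24e-05). In the ATF4 and amino acid response list, 24 of 40 members tested were raised in Pcgf1-/- against wild-type, beside 16.1% of all genes there. In Pcgf1/2/4-/- against Pcgf2/4-/- it was 2 of 37, below the 11% of all genes. The difference between these counts was not tested. The list median was 0.60 on the wild-type background, and 0.59 with the wild-type pair as 1 sample, where fewer members were called. On the Pcgf2/4-/- background it was 0.23, and 0.25 and 0.03 without Pcgf2/4-/- replicates 1 and 2.

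**Figure D4:**
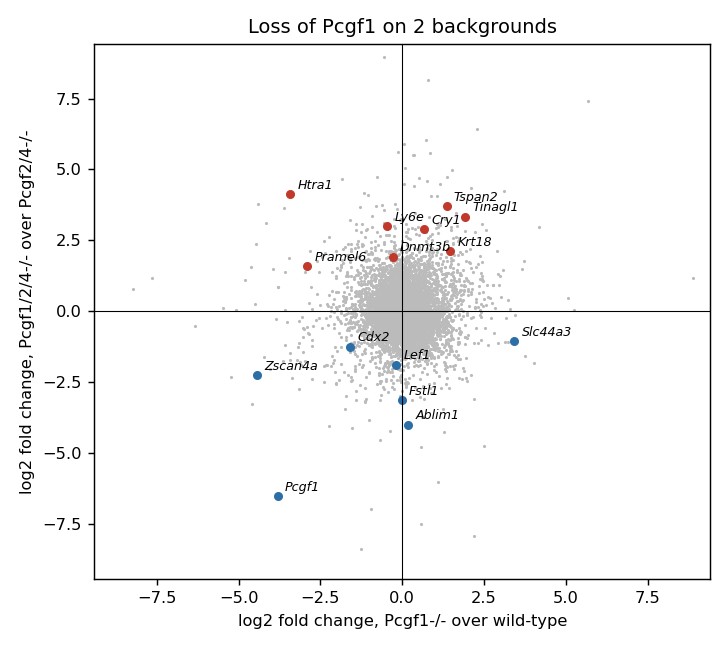
Log2 fold change of Pcgf1/2/4-/- over Pcgf2/4-/- (vertical) against that of Pcgf1-/- over wild-type (horizontal) for the 11311 genes tested on both backgrounds (grey), with some genes described in the text marked in red where raised and blue where lowered on the vertical axis. The cloud has no slope (r = 0.02), Krt18 is raised and Cdx2 lowered on both axes, and Htra1 is raised on the vertical and lowered on the horizontal axis.

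The genes with PCGF1 at their promoters were compared with all genes, using the authors' peak lists, each called from 1 sample. The PCGF1 list of Pcgf2/4-/- held 1845 peaks and that of wild-type 736, and the depth of the ChIP libraries is not given in the sources used here. Of 10618 tested genes with an annotated start, 11% were raised and 10.1% lowered, with a median of 0.07. A PCGF1 peak lay within 2500 bp of a start of 1225 genes of the table in Pcgf2/4-/-, of which 808 had too few counts to be tested. Of the 417 tested, 143 (34.3%) rose and 35 (8.39%) fell, with a median of 0.53. Of the 143, 87 had passed the filter through Pcgf1/2/4-/- alone, against 340 of all 1245 raised genes, so the counts are a description of the genes that passed. Genes with a peak in both wild-type and Pcgf2/4-/- numbered 127, of which 55 (43.3%) rose and 10 fell. Of the 55, 33 had passed the filter through Pcgf1/2/4-/- alone, so this count too is a description. The median of the 127 was 0.71, and 0.42 and 1.02 without Pcgf2/4-/- replicates 1 and 2. By 3 bins of expression level, the raised share with a PCGF1 peak in Pcgf2/4-/- was 35.8% in the lowest, against 15.2% of all annotated genes. It was 25.9% against 13% in the middle and 44.0% against 5.08% in the highest. The lowest bin held 307 of the 417 genes and the highest only 25. The bins used the mean level over these same 4 libraries and kept genes that passed the filter through Pcgf1/2/4-/- alone. They do not remove that selection, so these shares too are a description. The median of the 417 was 0.27 without Pcgf2/4-/- replicate 1 and 0.77 without Pcgf2/4-/- replicate 2. That median was 0.57 without Pcgf1/2/4-/- replicate 1. DESeq2 called 90 of the set raised and 21 lowered, beside 667 and 536 of all 11335 genes tested. Without Pcgf2/4-/- replicate 1, 170 (40.8%) rose and 94 (22.5%) fell, beside 31.3% and 33.3% of all genes in that fit. Members include Meis1, Hoxd9, Hoxd13, Col4a1, Dnmt3b, H2-K1, H2-D1 and Psmb9 among the raised genes and Lef1, Cdx2, Ccnd1 and T among the lowered.

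Peak lists of the other Polycomb marks were shorter in Pcgf1/2/4-/- than in Pcgf2/4-/-. RING1B had 5607 peaks in Pcgf2/4-/- and 2051 and 1814 in the 2 Pcgf1/2/4-/- lists, and SUZ12, a subunit of Polycomb repressive complex 2, had 8077 and 5427. H2AK119ub1 had 121944 against 2202 and 1070, and H3K27me3 had 112110 against 3918. With 1 list for each sample and unknown depth, these differences cannot be told apart from differences between ChIP libraries. Of 924 tested genes with a RING1B peak in Pcgf2/4-/- and in neither Pcgf1/2/4-/- list, 228 (24.7%) rose and 78 (8.44%) fell. Of 483 with a peak in Pcgf2/4-/- and in both Pcgf1/2/4-/- lists, 80 (16.6%) rose and 52 (10.8%) fell. The medians were 0.23 and 0.04, and without Pcgf2/4-/- replicate 1 they were 0.01 and -0.10. Without Pcgf1/2/4-/- replicate 1 these medians were 0.25 and 0.08. Without Pcgf2/4-/- replicate 1, 32.1% and 29% of the 2 sets rose and 28.2% and 32.1% fell, near the 31.3% and 33.3% of all genes in that fit. Genes with a SUZ12 peak in Pcgf2/4-/- rose in 463 of 1842 cases (25.1%) and fell in 156, with a median of 0.27. That median was 0.04 and 0.45 without Pcgf2/4-/- replicates 1 and 2, and 0.30 without Pcgf1/2/4-/- replicate 1. Some other splits had the larger raised share where the peak was kept, and the H2AK119ub1 split did not. Of genes with a SUZ12 peak in Pcgf2/4-/-, 28.9% rose where Pcgf1/2/4-/- had it too and 22.8% where it did not, and for H3K27me3 the shares were 25.1% and 20.6%. Of genes with PCGF1 and RING1B peaks in Pcgf2/4-/-, 37.8% rose with RING1B in both Pcgf1/2/4-/- lists and 34.1% with it in neither. For H2AK119ub1, 14.9% rose with the peak in both lists, 29.3% with it in 1 and 18% with it in neither. With only peaks of −log10 q of at least 10, kept against lost, the shares were 30% and 24.7% for SUZ12. They reversed for H3K27me3 (19.6% and 21.8%) and for PCGF1 with RING1B (36.4% and 47%). Of the raised genes, 99 of 228 and 38 of 80 in the first RING1B split and 215 of 463 with a SUZ12 peak had passed the filter through Pcgf1/2/4-/- alone. The differences between these sets were not tested.

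**Figure D5:**
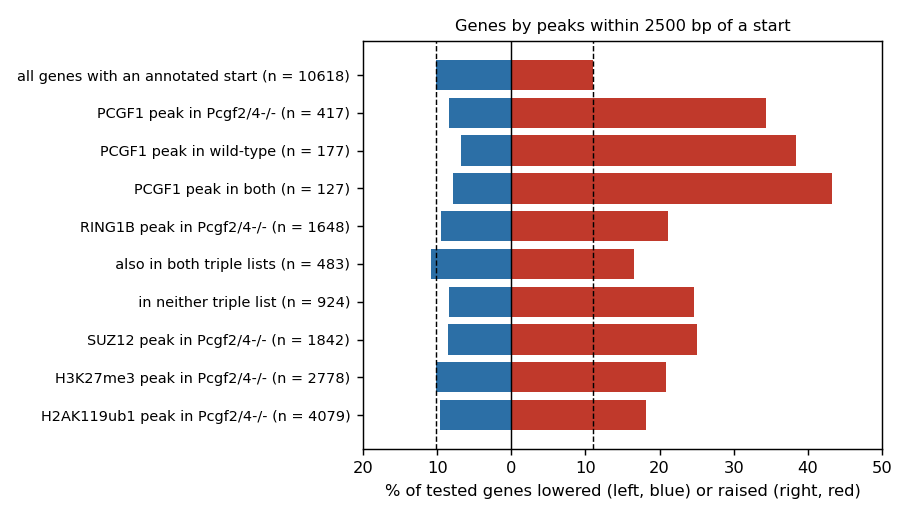
Percentage of tested genes lowered (left, blue) or raised (right, red) in Pcgf1/2/4-/- against Pcgf2/4-/-, by the peaks within 2500 bp of a start, with the number tested in brackets and dashed lines at the values of all 10618 genes with an annotated start. The raised share is 34.3% with a PCGF1 peak in Pcgf2/4-/- and 43.3% with a peak in both lines, against 11% of all genes. Of these raised genes, 87 of 143 and 33 of 55 had passed the filter through Pcgf1/2/4-/- alone.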

How the data were processed

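RNA-seq measured poly-A RNA of 14 libraries of mouse embryonic stem cells in the series, and 8 libraries in 4 groups of 2 were used here. The authors deposited whole-number counts per gene symbol in 1 table, without normalization, and 0 of its columns of values lacked a sample. The submitters' processing notes name TopHat2 2.1.1, Bowtie 1.2.2, HTSeq 0.7.2, MACS2 2.1.1, Picard 1.62 and bcl2fastq 2, without saying which step each served, and the build mm9 (NCBIM37). Strandedness of the counting is not given in the sources used here. Peak lists were deposited with −log10 q values, per the file headers, and 12 of them were used, each called by the authors from 1 sample; a gene was assigned a peak within 2500 bp of a start in GENCODE M1.

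Tests used edgeR 4.0.16 in R 4.3.3: TMM factors and filterByExpr within the libraries compared, a quasi-likelihood fit without covariates, and Benjamini-Hochberg adjustment over all genes tested, with a threshold of 0.05. The common dispersion of the 4 libraries was 0.0374, a biological coefficient of variation of 19.3%. Permuting 2 against 2 libraries gives an exact p of 0.333 at the least. CPM values are counts over TMM-scaled library sizes. For a group with no count, 3 counts over both libraries served as the floor (0.25 CPM for Pcgf2/4-/-). Without molecular identifiers reads are not independent molecules, and floors and intervals hold counting error alone. The fits were tested on simulated data.

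The genes named were Pcgf1, Pcgf2 and Bmi1, then the 10 raised and 10 lowered genes with the largest smallest absolute log2 fold change over the full fit and the 4 fits without 1 library. These had to be called, have a mean log2 CPM of at least 3, 1 sign and groups that do not overlap. Further genes were the 6 raised and 6 lowered of those changed only once PCGF1 was removed, under the same conditions and ranked by the smaller of their changes against Pcgf2/4-/- and wild-type, the 4 largest interactions in each direction (mean log2 CPM of at least 3 over 8 libraries), and up to 4 members of each list with the smallest adjusted p. Genes and markers outside this rule (Tfap2c, the defining markers) were named after their values were seen, and some genes that the rule picks are not reported here. Members and lists were chosen with earlier results of these data known. Alternatives were other size factors, DESeq2 1.42.0, no low-count filter, a mean count of at least 20, loess offsets, counts thinned to equal totals, all 14 libraries in 1 fit, a log2 threshold of 1, a replicate block, and leaving out each library. Counting the wild-type pair as 1 sample, and list counts and medians over the genes tested in each setting, were chosen after seeing the data.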

Additional observations from a re-analysis of the deposited data

Results flagged for a closer look

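The response to loss of Pcgf1 differed between the Pcgf2/4-/- and wild-type backgrounds for 3625 genes by the interaction test. The 4 largest positive interactions among genes with a mean log2 CPM of at least 3 over the 8 libraries, and groups of the Pcgf2/4-/- background that do not overlap, come first. Ddx3y, a Y-linked RNA helicase, had an interaction of 8.96 on the log2 scale (SE 0.38, Benjamini-Hochberg adjusted p = 2.05e-06 by the quasi-likelihood test of edgeR). It had 101 and 97.2 CPM in wild-type, 0.321 and 0.223 in Pcgf1-/-, 8.62 and 9.97 in Pcgf2/4-/- and 14.7 and 15.1 in Pcgf1/2/4-/-, with 3 and 1 counts behind the Pcgf1-/- values. Eif2s3y, another Y-linked gene, had 860 and 868 counts in wild-type. It had at most 3 counts in each of the other 6 libraries, those of Pcgf2/4-/- included. All 4 Y-linked genes tested in Pcgf1-/- against wild-type were lowered, with a median log2 fold change of -8.22. The 7 listed Y-linked genes, summed over raw library totals, had 290 and 278 CPM in wild-type and 0.765 and 0.666 in Pcgf1-/-. That sum was 8.68 and 10.7 in Pcgf2/4-/- and at most 15.4 in Pcgf1/2/4-/-. The Ddx3y interaction is therefore not specific to that gene, and whether it belongs to the clone was not tested. Krt42, a keratin, had an interaction of 4.88, S100a6, a calcium-binding protein, one of 4.62, and Pramel6, a gene of early embryos, one of 4.44. Krt42 had 45.7 and 45.4 CPM in wild-type, 6.85 and 4.68 in Pcgf1-/-, 6.97 and 15.3 in Pcgf2/4-/- and 48.9 and 48.4 in Pcgf1/2/4-/-. For S100a6 the values in that order were 29.9 and 32.2, 2.46 and 1.34, 10.3 and 10.2, and 16.8 and 16.9 CPM. In Ddx3y, Krt42, S100a6 and Pramel6 the lowest group was Pcgf1-/-.

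Among the largest negative interactions were those of Ccdc68 (-4.75), Mogat2 (-4.54), an acyltransferase of fat absorption, and Slc44a3 (-4.54), a transporter of the choline transporter-like family. Ccdc68 had 10.2 and 7.68 CPM in wild-type, 20.0 and 19.6 in Pcgf1-/-, 22.6 and 29.3 in Pcgf2/4-/- and 2.1 and 2.22 in Pcgf1/2/4-/-. Mogat2 had 4.92 and 11.5 CPM in Pcgf2/4-/- and 2.63 and 0.444 in Pcgf1/2/4-/-, the last from 1 count, and its call in Pcgf1/2/4-/- against Pcgf2/4-/- was lost without Pcgf2/4-/- replicate 2 and without Pcgf1/2/4-/- replicate 2. Ddx3y, S100a6 and Slc44a3 were not called in Pcgf1/2/4-/- against Pcgf2/4-/-. Their log2 fold changes there were 0.80, 0.86 and -1.06 (adjusted p = 0.11, 0.0778 and 0.0646 by the quasi-likelihood test of edgeR). Most of their interaction came from the wild-type background, with log2 fold changes of -8.24, -3.80 and 3.43.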

How the results depend on the processing

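The number of genes called in Pcgf1/2/4-/- against Pcgf2/4-/- was 2405 and fell to 1203 with DESeq2 and 321 against a log2 threshold of 1, and rose to 4633 with all 14 libraries in 1 fit. It ranged from 1169 to 7691 in the fits without 1 library. Of the other settings, size factors by relative log expression gave 2295, no filter 3204, a mean count of at least 20 gave 2080, loess offsets 2960 and thinning 2067, all within 1.5 times. The loess offsets left 2221 of the 2405 calls in the same direction (92.3%). For Pcgf1-/- against wild-type, 4003 calls became 1644 with the wild-type pair as 1 sample and 1253 to 8989 without 1 library. The 3625 interactions became 2275 with the wild-type pair as 1 sample and 2000 to 5927 without 1 library, and without Pcgf1-/- replicate 2 the positive share was 33.2%. The 1193 genes changed only once PCGF1 was removed became 616 with DESeq2 and 446 to 3754 without 1 library. The cause of these differences was not tested. With the replicate number as a block, 2939 genes were called; same-numbered libraries had a correlation of deviations of 0.115 over 2 pairs, which does not establish a pairing. The block left 2362 of the 2405 calls in the same direction. Of 103 calls on genes listed for naming, DESeq2 lost 10, a log2 threshold of 1 lost 45, thinning lost 3, and leaving out Pcgf1/2/4-/- replicates 1 and 2 lost 12 and 15. No listed gene reversed in any of these settings. Of 553 medians of lists and promoter sets recomputed under other settings, 465 moved by less than the spread between replicates and 88 by more. In Pcgf1/2/4-/- a level of 1.31 to 1.53 CPM rests on 3 counts, so smaller levels there could not be told from 0.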
